A study of Homo sapiens with 7 samples.

Results

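The genes examined here were 34 genes of glycolysis and of the handling of its products, pyruvate and lactate, among 19974 protein-coding genes of chromosomes 1 to 22 and X. They were taken as a list of enzyme and transporter names, drawn up with earlier results of these data known. They cover the glucose transporters, the enzymes of the glycolytic steps with their isoforms, the enzymes that set fructose-2,6-bisphosphate, lactate dehydrogenase, the monocarboxylate transporters, the mitochondrial pyruvate carrier, and the pyruvate dehydrogenase E1 alpha subunit with its kinases. The cells were LUHMES, an established human mesencephalic line with a wild-type genotype per the labels, differentiated for 6 days in medium with tetracycline, dibutyryl cAMP and GDNF into cells that the labels call dopaminergic neurons. The treated cells received antimycin A at 25 µM, a blocker of complex III of the respiratory chain, and oligomycin at 10 µM, which blocks the ATP synthase, for 8 h, in 4 libraries from differentiations 6, 7, 8 and 9. The vehicle cells received DMSO, in 3 libraries from differentiations 6, 7 and 8. Open chromatin was measured by ATAC-seq, in which a transposase cuts and tags accessible DNA, and each library is given as a list of accessible regions called by the authors. All cells come from 1 line, so the libraries measure the spread between differentiations and not between donors.

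Glycolysis splits glucose into pyruvate in the cytosol and yields ATP without oxygen. Pyruvate is carried into mitochondria and oxidised there, or is reduced to lactate by lactate dehydrogenase, which restores the NAD+ that glycolysis needs. Pyruvate dehydrogenase kinases restrain the entry of pyruvate into the citric acid cycle, and PFKFB enzymes set the level of fructose-2,6-bisphosphate, an activator of phosphofructokinase. Neurons are known to rely largely on oxidative phosphorylation, and blocked respiration leaves glycolysis as the remaining main source of ATP. Many of these genes are textbook targets of hypoxia-inducible factor, a basic helix-loop-helix factor that binds a core of A or G followed by CGTG.

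The sequences before the starts of 7 transcripts are shown because the results below turn on them: the lactate dehydrogenases, phosphoglycerate kinase, the aldolase and the kinase whose ranks differed most between treated and vehicle within their families, and a closed and an open start of hexokinase 1. Each is the 250 bases before an annotated start, 5′ to 3′ on the strand of the gene, from RefSeq on GRCh38.p14, the patch series of the hg38 build of the files. Capitals mark ACGTG and GCGTG, on either strand, so that CACGT and CACGC are the same motifs read on the other strand. The palindrome CACGTG holds ACGTG on both strands and counts as 2 matches.
LDHA, first start, chr11:18394313-18394562, plus strand: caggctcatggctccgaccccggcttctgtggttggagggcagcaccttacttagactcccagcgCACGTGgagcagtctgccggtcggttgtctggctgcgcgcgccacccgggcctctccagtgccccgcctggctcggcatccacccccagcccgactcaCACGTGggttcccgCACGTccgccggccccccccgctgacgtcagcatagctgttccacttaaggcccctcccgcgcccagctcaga
LDHB, chr12:21657843-21658092, minus strand: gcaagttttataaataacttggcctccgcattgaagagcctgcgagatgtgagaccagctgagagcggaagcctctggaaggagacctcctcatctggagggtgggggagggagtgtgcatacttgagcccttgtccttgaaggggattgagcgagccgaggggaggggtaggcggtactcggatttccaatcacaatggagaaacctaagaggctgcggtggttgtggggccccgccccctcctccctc
PGK1, chrX:78103998-78104247, plus strand: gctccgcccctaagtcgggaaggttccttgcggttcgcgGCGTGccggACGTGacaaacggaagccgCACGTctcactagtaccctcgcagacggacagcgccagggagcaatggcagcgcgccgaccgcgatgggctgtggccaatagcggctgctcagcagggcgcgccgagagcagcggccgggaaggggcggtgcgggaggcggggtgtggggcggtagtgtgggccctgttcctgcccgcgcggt
ALDOC, chr17:28576896-28577145, minus strand: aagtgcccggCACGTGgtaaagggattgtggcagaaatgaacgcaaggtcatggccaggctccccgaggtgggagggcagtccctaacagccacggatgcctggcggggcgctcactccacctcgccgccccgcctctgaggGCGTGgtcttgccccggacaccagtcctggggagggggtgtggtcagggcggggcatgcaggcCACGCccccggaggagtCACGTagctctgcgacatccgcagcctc
PDK3, chrX:24465036-24465285, plus strand: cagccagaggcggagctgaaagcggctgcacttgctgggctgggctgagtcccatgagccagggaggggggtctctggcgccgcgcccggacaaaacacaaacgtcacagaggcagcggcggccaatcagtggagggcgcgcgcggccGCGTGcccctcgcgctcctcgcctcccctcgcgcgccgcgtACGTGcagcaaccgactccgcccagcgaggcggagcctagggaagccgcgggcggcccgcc
HK1, first start, chr10:69269750-69269999, plus strand: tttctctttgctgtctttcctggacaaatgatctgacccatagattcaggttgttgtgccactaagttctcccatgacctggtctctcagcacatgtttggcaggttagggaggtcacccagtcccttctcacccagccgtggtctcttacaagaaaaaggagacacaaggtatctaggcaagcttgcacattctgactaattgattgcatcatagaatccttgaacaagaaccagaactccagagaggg
HK1, start number 5 of 7, chr10:69317931-69318180, plus strand: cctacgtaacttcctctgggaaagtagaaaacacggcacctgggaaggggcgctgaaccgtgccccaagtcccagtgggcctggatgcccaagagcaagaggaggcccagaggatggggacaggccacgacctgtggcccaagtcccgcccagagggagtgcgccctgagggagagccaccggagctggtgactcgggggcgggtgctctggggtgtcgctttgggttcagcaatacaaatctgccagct
In these windows the first start of LDHA held 5 matches to ACGTG, ALDOC and PGK1 held 3 and 2, PDK3 held 1, and LDHB held 0. Neither HK1 window held ACGTG. In the table's full windows, which run 50 bases past the start and are 300 bases long, ACGTG stood at 21 of the 64 annotated starts of 31 of the genes, or 32.8%, and at 23.1% of all 22132 starts. GCGTG stood at 40.6% of the genes' starts and at 43.0% of all starts. A match is a description of the letters, and several starts of 1 gene share part of their sequence.

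The 7 lists differ first of all in length, with 53063 to 248900 regions in the treated libraries and 32828 to 159902 in the vehicle libraries. A list longer by a factor of several reaches weaker regions, so each comparison was made on the lists as deposited and on lists of equal size, the 32828 regions of highest fold enrichment in each library. The fold, as the authors' peak caller gave it, was read as the summit pileup plus 1 over the background plus 1. It fell on whole pileup steps in every library, which gave 1 background per library. These were 0.816 to 5.99 overlapping fragments in the treated and 0.492 to 1.43 in the vehicle libraries. Values given as times over background are the pileup over that background, without the added 1. The added 1 lowers the fold most where the background is low, so folds of different libraries are not on 1 scale. LDHB had a fold of 30.8 in vehicle 6 and 40.9 in treated 7, but stood 91.5 and 47.5 times over background. Lists of equal size still did not reach down to 1 common strength. Their weakest region stood 6.67 to 12.4 times over background in the treated libraries and 8.18 to 14.6 times in the vehicle libraries. Of 12 markers of dopaminergic neurons, 5 were open in each equal-size list, with NR4A2, PITX3 and EN1 open in all 7, while TH, SLC18A2 and DDC were open in none. Of 10 general neuronal markers, 9 were open in each treated and 7 to 9 in the vehicle libraries. Of 9 glial markers, 1 to 4 were open in the treated and 1 to 3 in the vehicle libraries, of 9 mesenchymal and endothelial markers 4 to 5 in the treated and 2 to 3 in the vehicle libraries, and of 7 progenitor and proliferation markers 6 to 7 in the treated and 3 to 7 in the vehicle libraries. The part of these marker differences in the results below was not tested, and in bulk chromatin a region open in fewer cells cannot be told apart from one less open in each cell.

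A gene was called open in a library when a region lay within 1000 bp of either end of the gene. Most glycolytic genes were open in neurons of both treatments. In the equal-size lists 29, 29, 27 and 29 of the 34 genes were open in treated libraries 6, 7, 8 and 9, and 26, 26 and 27 in vehicle libraries 6, 7 and 8. The means were 28.5 ± 1.0 in treated and 26.3 ± 0.577 in vehicle libraries (SD, n = 4 and 3), with the highest vehicle library level with the lowest treated one. As shares these were 83.8% in treated and 77.5% in vehicle libraries, a difference of 6.37 percentage points. Over all protein-coding genes the shares were 62.4% in treated and 56.1% in vehicle libraries, a difference of 6.31 points. On these lists the members' gain was about the size of that of all genes. In the deposited lists 31, 31, 30 and 30 members were open in the treated libraries and 27, 26 and 31 in the vehicle libraries, so that the long list of vehicle 8 was level with the longest treated lists. The deposited shares of members differed by 7.35 points, and those of all genes, 73.1% in treated and 63.6% in vehicle libraries, by 9.53 points.

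Gene by gene, 23 of the 34 were open in all 7 equal-size lists, 67.6% of them, beside 46.5% of all genes. These were SLC2A1, HK2, GPI, PFKM, PFKFB1, ALDOA, ALDOC, TPI1, GAPDH, PGK1, PGAM1, ENO1, PKM, PKLR, LDHA, LDHB, SLC16A1, PDK1, PDK2, PDK3, PDK4, MPC1 and MPC2, at least 1 gene for nearly every step. Among these 23, PFKFB1, the only PFKFB gene, PKLR and MPC2 had summits nearer to a neighbouring gene's start in all 7 libraries. 4 of the 34 were open in none (HK1, PFKP, PFKFB2 and SLC16A3), 11.8% beside 29.6% of all genes. 6 genes were open in a larger share of treated libraries, SLC2A3, PFKL, PFKFB3, PFKFB4, ENO2 and ENO3, among the 30 open anywhere. Of all 14055 genes open anywhere, 27.5% did the same. PDHA1 alone was open in a larger share of vehicle libraries, which 6.47% of genes were. None of the 34 was open in all treated and no vehicle library, as 0.818% of genes were, and none showed the opposite pattern, as 0.0213% of genes did. In the deposited lists 7 members were open in a larger share of treated libraries, beside a background of 35.0%, and 0 in a larger share of vehicle libraries, beside 5.73%. There 24 members were open in all 7 libraries, beside 49.8% of all genes, and none of the 34 was open in all treated and no vehicle library, beside 0.131% of genes. Fisher's exact test, two-sided, on libraries with and without a region can reach a smallest p of 0.0286 with 4 against 3 libraries. That p was reached by 118 of the 14055 genes and by 0 of the 30 members tested, and after Benjamini-Hochberg adjustment 0 genes had a p under 0.05.

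**Figure D1:**
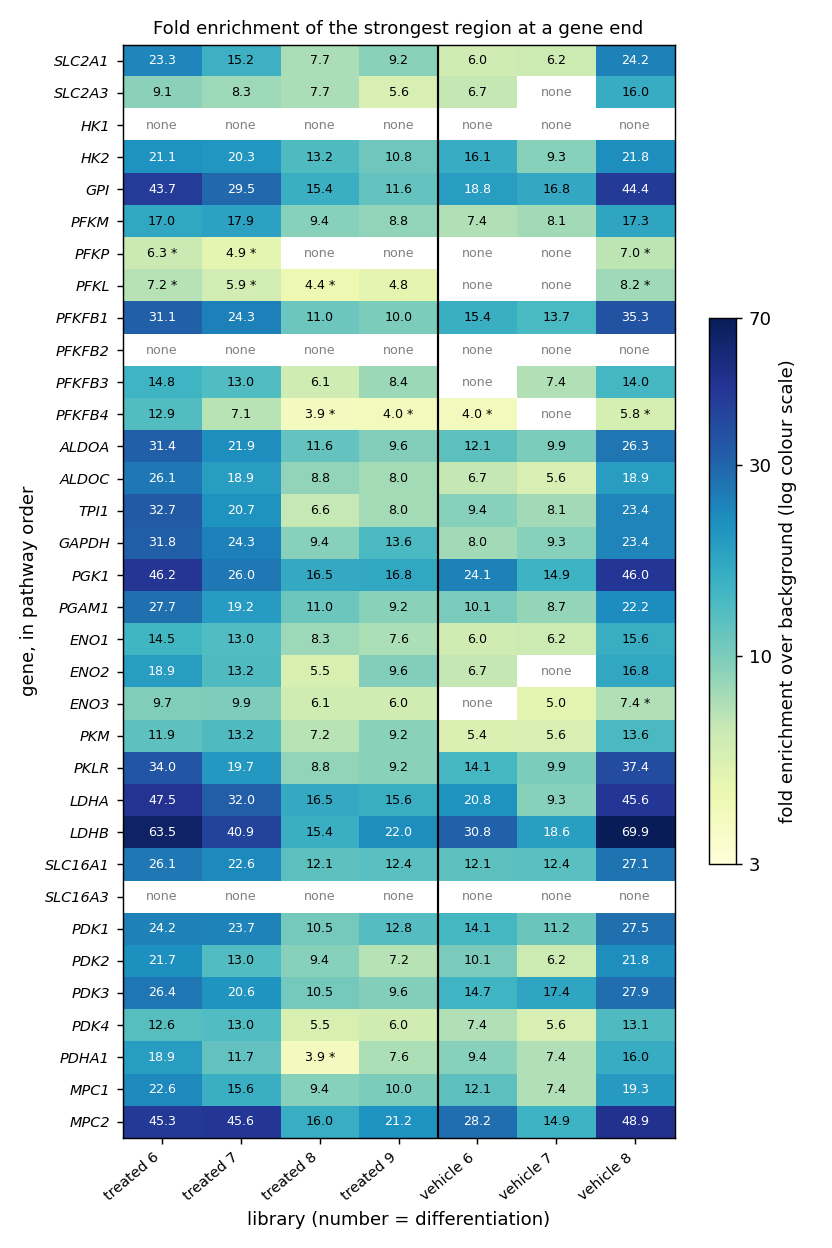
Fold enrichment over background of the strongest region within 1000 bp of either end of each of the 34 genes (rows, in pathway order) in the deposited list of each library (columns, treated left of the black line, vehicle right of it). Colour is on a log scale, an asterisk marks a region outside the equal-size list of its library, and "none" marks a gene with no region. Folds run higher in treated 6, treated 7 and vehicle 8, the 3 longest lists, than in the other 4 libraries, and HK1, PFKFB2 and SLC16A3 have no region in any.

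At the entry of the pathway, SLC2A1, which encodes the glucose transporter GLUT1, was open in all 7 libraries. Its strongest gene-end region had folds of 23.3, 15.2, 7.71 and 9.21 in treated libraries 6 to 9 and 6.03, 6.21 and 24.2 in vehicle libraries 6 to 8. The groups overlapped, and the libraries with long lists were high in both. In treated 6, 8 and 9 and in vehicle 6 that region lay at the far end of the gene, 34454 to 34477 bp from the annotated start, and in the other 3 libraries at the start. SLC2A3 encodes GLUT3, the high-affinity transporter typical of neurons. Its folds were 9.12, 8.29, 7.71 and 5.60 in treated libraries and 6.70, none and 16.0 in vehicle libraries, so the highest and the only missing value were both vehicle.

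The phosphorylation of glucose shows where the gene-end rule and the annotated starts part. HK2, the inducible hexokinase, was open in all 7 libraries, with folds of 21.1, 20.3, 13.2 and 10.8 in treated and 16.1, 9.31 and 21.8 in vehicle libraries. HK1, the hexokinase of brain, was closed at both gene ends in all 7 libraries, deposited lists included. It has 7 annotated starts, and the first, shown above, with a GC content of 46.7% over its full window, was covered by a region in no library. Its start number 5, 48181 bp inside the gene and with a GC content of 64.0%, was covered in 4 of 4 treated and 1 of 3 vehicle libraries. Folds there were 23.6, 16.2, 8.26 and 8.40 in treated libraries and none, none and 16.8 in vehicle libraries. The sixth start, 49064 bp inside the gene, was covered in 4 of 4 treated and 2 of 3 vehicle libraries, and within 1000 bp of some annotated start HK1 was open in all 7 libraries. Vehicle 6 and vehicle 7 thus also held a region near an internal start, with folds of 10.1 and 8.69, and HK1 was closed at the ends of the gene only.

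GPI, phosphoglucose isomerase, had some of the strongest regions among the members, with folds of 43.7, 29.5, 15.4 and 11.6 in treated and 18.8, 16.8 and 44.4 in vehicle libraries. The summit lay a median of 340.0 bp from the gene's end and 5614 bp from the 1 annotated start in the promoter table. That start was covered in 4 of 4 treated and 1 of 3 vehicle libraries, with folds of 13.8, 11.0, 8.81 and 6.80 in treated libraries and none, none and 13.6 in vehicle libraries. Within 1000 bp of it vehicle 6 and vehicle 7 also held a region, with folds of 3.35 and 4.96. That of vehicle 6 was outside its equal-size list. The share of all starts covered in this way was not counted.

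Phosphofructokinase, the committed step, is built of muscle, liver and platelet subunits. PFKM, the muscle subunit, was open in all 7 libraries, with folds of 17.0, 17.9, 9.36 and 8.81 in treated and 7.37, 8.07 and 17.3 in vehicle libraries. Its region also lay within 1000 bp of the end of SENP1 in every library, so the signal cannot be assigned to 1 of the pair. PFKL, the liver subunit, was in the deposited list of every treated library with folds of 7.23, 5.86, 4.41 and 4.80, and in the vehicle lists with none, none and 8.22. The 1 vehicle value was above all treated values. The summit pileups were 22, 40, 7 and 11 in treated libraries and 19 in vehicle 8, and the 7 of treated 8 has an exact Poisson 95% interval of 2.81 to 14.4, which covers counting error only. The region stood 10.1, 6.67, 8.58 and 7.34 times over background in treated libraries 6 to 9 and 13.3 times in vehicle 8. The weakest region of any kind stood 8.13 times over background in vehicle 6 and 8.18 times in vehicle 7, which is above the values of treated 7 and 9 and below those of treated 6 and 8. In the equal-size lists PFKL was open in treated 9 alone. PFKP, the platelet subunit, was in no equal-size list at a gene end, with deposited folds of 6.29 and 4.86 in treated 6 and 7 and 6.99 in vehicle 8.

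The PFKFB genes divided into 1 gene open everywhere, 1 closed and 2 in between. PFKFB1, best known in liver and muscle, had folds of 31.1, 24.3, 11.0 and 10.0 in treated and 15.4, 13.7 and 35.3 in vehicle libraries. In all 7 libraries the summit was nearer to the start of APEX2, a DNA repair endonuclease gene, at a median of 328.0 bp, than to a start of PFKFB1, at a median of 1246 bp, and neither annotated start of PFKFB1 was covered in any equal-size list. PFKFB3, the isoform in which kinase activity most exceeds phosphatase activity, had folds of 14.8, 13.0, 6.06 and 8.40 in treated libraries and none, 7.45 and 13.97 in vehicle libraries at its first start. Its second start, 58011 bp further into the gene, was covered in all 7 libraries, with folds of 31.1, 19.4, 12.1 and 9.61 in treated and 9.38, 8.07 and 23.8 in vehicle libraries. PFKFB2 had no region at either end, but 2 regions inside its body were in all 7 equal-size lists.

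PFKFB4, a further PFKFB isoform, was open at a gene end in 2 of 4 treated and 0 of 3 vehicle equal-size lists. Deposited folds were 12.9, 7.15, 3.85 and 4.00 in treated libraries and 4.02, none and 5.75 in vehicle libraries. The difference in share, 0.5, was 0.333 without treated 6 or treated 7, 0.0833 with a window of 2500 bp, and 0 in lists of 16414 regions and at annotated starts. The 2 highest folds were treated, and the other treated folds were at or below those of vehicle 6 and 8. Over background the values were 18.3, 8.17, 7.35 and 6.01 times in treated libraries 6 to 9. In vehicle 6 and 8 they were 10.2 and 9.07 times, so only treated 6 was above them on that scale. That region was nearer to the start of UCN2, the urocortin 2 gene, than to the start of PFKFB4. At the annotated start of PFKFB4 itself the strongest region within 1000 bp had folds of 16.4, 12.7, 8.26 and 5.60 in treated and 7.37, 6.83 and 19.3 in vehicle libraries, and it was in all 7 equal-size lists.

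In the middle of the pathway every member was open in all 7 libraries. ALDOA, the ubiquitous aldolase, had folds of 31.4, 21.9, 11.6 and 9.61 in treated and 12.1, 9.93 and 26.3 in vehicle libraries. Of its 3 annotated starts the third was covered in all 7 libraries, while the first was covered in 4 of 4 treated and 0 of 3 vehicle equal-size lists. In the deposited lists vehicle 8 also covered the first start, with a fold of 4.11. The share of all starts with this pattern was not counted. The first start lies 1481 bp before the third, and the regions of the treated libraries were 1633 to 3747 bp wide, against 1204 to 2141 bp in vehicle libraries, and the part of width in this coverage was not tested. ALDOC, the aldolase of brain, had folds of 26.1, 18.9, 8.81 and 8.00 in treated and 6.70, 5.59 and 18.9 in vehicle libraries. In treated 7 the strongest region lay at the other end of ALDOC, beside the start of PIGS, and the region at the ALDOC start had a fold of 15.7. TPI1, triosephosphate isomerase, had its strongest region beside the start of SPSB2 in treated 6, treated 7 and vehicle 8 and near its own starts in the other 4 libraries.

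GAPDH, which makes the NADH of glycolysis, had folds of 31.8, 24.3, 9.36 and 13.6 in treated and 8.04, 9.31 and 23.4 in vehicle libraries. Treated values were high in the libraries with long lists, as was vehicle 8. The region was wide, 2097 to 4512 bp in treated and 1256 to 3287 bp in vehicle libraries, and in 5 libraries it also reached within 1000 bp of the end of NCAPD2. PGK1, which makes the first ATP of the pathway, had folds of 46.2, 26.0, 16.5 and 16.8 in treated and 24.1, 14.9 and 46.0 in vehicle libraries, with overlapping groups. PGAM1, phosphoglycerate mutase, was open at the gene's end in all 7 libraries, with folds of 27.7, 19.2, 11.0 and 9.21 in treated and 10.1, 8.69 and 22.2 in vehicle libraries.

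Of the enolases, ENO3, the muscle enolase, was open in 4 of 4 treated and 1 of 3 vehicle equal-size lists, the largest difference in share among the 34 genes. Its folds were 9.75, 9.86, 6.06 and 6.00 in treated libraries and none, 4.96 and 7.40 in vehicle libraries, where the 7.40 of vehicle 8 was outside the equal-size list. The difference in share was 0.667, and 0.5 to 1.0 with any 1 library left out, the 1.0 being without vehicle 7. It was 0.333 in the deposited lists and 0.25 in lists of 16414 regions. All treated folds were above that of vehicle 7, and 2 of them were below that of vehicle 8. Summit pileups were 30, 68, 10 and 14 in treated libraries and 7 and 17 in vehicle 7 and 8. The region stood 13.8, 11.3, 12.3 and 9.34 times over background in treated libraries 6 to 9. In vehicle 7 and 8 it stood 11.4 and 11.9 times over background, above treated 7 and 9. In 3 of the 5 libraries with ENO3 open the region also lay near the end of PFN1, the profilin 1 gene. ENO2, the enolase of neurons, had folds of 18.9, 13.2, 5.51 and 9.61 in treated and 6.70, none and 16.8 in vehicle libraries. In treated 6, 8 and 9 and in vehicle 8 that region lay at the far end of ENO2, near ATN1, and in treated 7 and vehicle 6 at its start. ENO1, the ubiquitous enolase, was open in all 7, with folds of 14.5, 13.0, 8.26 and 7.60 in treated and 6.03, 6.21 and 15.6 in vehicle libraries.

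Pyruvate kinase makes pyruvate and the second ATP. PKM, the form of most tissues, had folds of 11.9, 13.2, 7.16 and 9.21 in treated and 5.36, 5.59 and 13.6 in vehicle libraries, in the lower part of the range of members. PKLR, the form of liver and red cells, was counted open in all 7 libraries with folds of 34.0, 19.7, 8.81 and 9.21 in treated and 14.1, 9.93 and 37.4 in vehicle libraries. In every library that region was nearest to the start of FDPS, the farnesyl diphosphate synthase gene, at a median of 144.0 bp, and a median of 7284 bp from a start of PKLR. Neither annotated start of PKLR was covered in any library, deposited lists included.

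**Figure D2:**
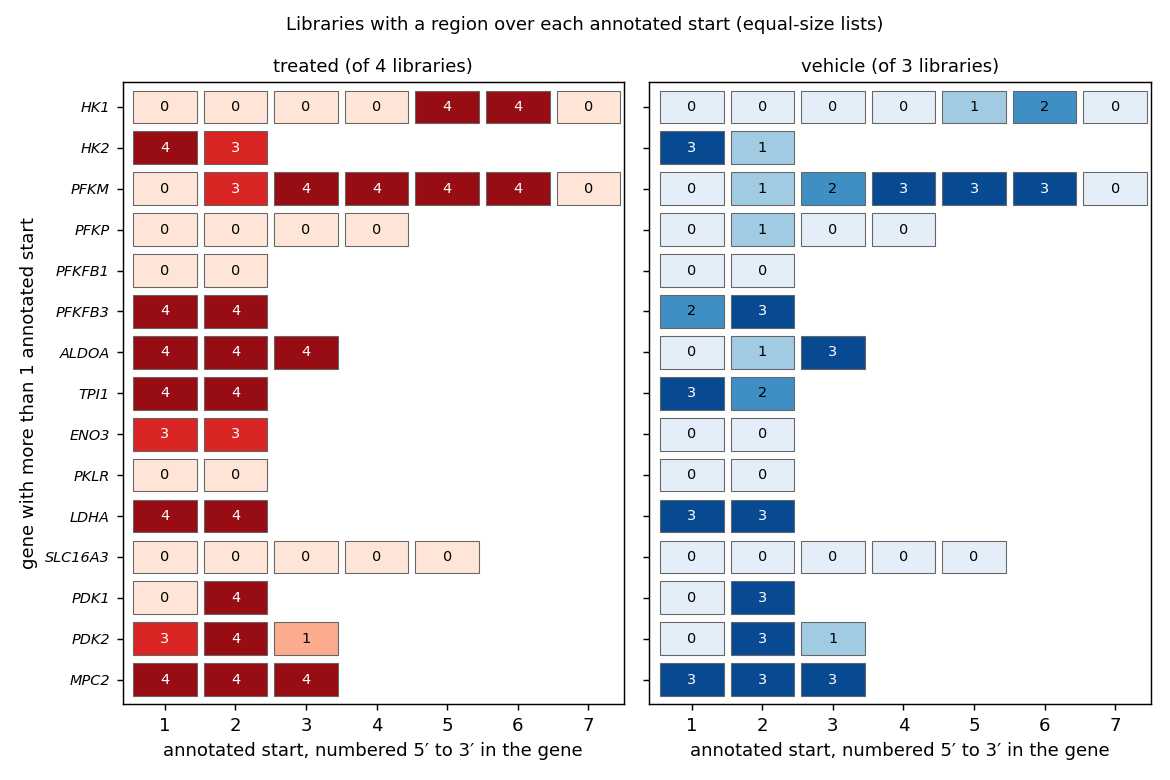
Number of libraries with a region over each annotated start of the 15 genes with more than 1 start, in the equal-size lists, out of 4 treated (left panel) and 3 vehicle libraries (right panel). Starts are numbered 5′ to 3′ within the gene. PKLR, PFKFB1 and SLC16A3 have only zeros, HK1 is covered at starts 5 and 6 and PDK1 at its second, and the first start of ALDOA is covered in 4 treated and 0 vehicle libraries.

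LDHB had the highest mean percentile of the 23 genes ranked below, 95.9, and LDHA one of 83.7, behind MPC2 at 92.7 and PGK1 at 87.8. LDHB, whose subunit favours the oxidation of lactate, had folds of 63.5, 40.9, 15.4 and 22.01 in treated and 30.8, 18.6 and 69.9 in vehicle libraries. LDHA, whose subunit favours the reduction of pyruvate, had folds of 47.5, 32.0, 16.5 and 15.6 in treated and 20.8, 9.31 and 45.6 in vehicle libraries. The groups overlapped for both. In percentiles among the 9283 genes open in all 7 equal-size lists, where 100 is the strongest, LDHB stood at 97.8, 96.6, 87.6 and 97.7 in treated and 97.3, 95.6 and 98.8 in vehicle libraries. LDHA stood at 90.3, 88.6, 90.9 and 85.4 in treated and 87.2, 54.2 and 89.4 in vehicle libraries, with vehicle 7 apart from the others. In vehicle 7 the region within 1000 bp of the gene's end was not the one at the second LDHA start, 1788 bp into the gene, where its fold was 14.9. SLC16A1, the monocarboxylate transporter MCT1, had folds of 26.1, 22.6, 12.1 and 12.4 in treated and 12.1, 12.4 and 27.1 in vehicle libraries. SLC16A3, the lactate exporter MCT4 of glycolytic cells, was closed at both ends in all 7 lists, and none of its 5 annotated starts was covered in an equal-size list. Within 1000 bp of a start it had a region in 1 treated and 1 vehicle equal-size list. Deposited folds there were 6.60, 5.29, 4.41 and 4.40 in treated libraries and none, 3.72 and 6.16 in vehicle libraries.

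At the mitochondrial fork, MPC2, a subunit of the pyruvate carrier, had folds of 45.3, 45.6, 16.0 and 21.2 in treated and 28.2, 14.9 and 48.9 in vehicle libraries. Its summit was nearer to the start of DCAF6 in every library, at a median of 103.0 bp, than to its own, at 463.0 bp, although all 3 MPC2 starts were covered. Its partner MPC1 had folds of 22.6, 15.6, 9.36 and 10.0 in treated and 12.1, 7.45 and 19.3 in vehicle libraries. PDHA1, the E1 alpha subunit that the kinases phosphorylate, had folds of 18.9, 11.7, 3.85 and 7.60 in treated and 9.38, 7.45 and 16.0 in vehicle libraries. The region of treated 8, with a summit pileup of 6 and an exact Poisson 95% interval of 2.20 to 13.1, was outside its equal-size list, which made PDHA1 the 1 member open in a larger share of vehicle libraries.

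The 4 kinases were open in all 7 libraries. PDK3 had folds of 26.4, 20.6, 10.5 and 9.61 in treated and 14.7, 17.4 and 27.9 in vehicle libraries. PDK1, the kinase best known as a hypoxia target, had folds of 24.2, 23.7, 10.5 and 12.8 in treated and 14.1, 11.2 and 27.5 in vehicle libraries, and of its 2 annotated starts the second was covered in all 7 libraries and the first in none. PDK2 had folds of 7.20 to 21.7 in treated and 6.21 to 21.8 in vehicle libraries. PDK4, the kinase induced by fasting in many tissues, had folds of 5.51 to 13.0 in treated and 5.59 to 13.1 in vehicle libraries, the lowest of the 4 kinases by mean percentile.

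The strength of the regions was compared as each gene's percentile within its own library, over the 9283 genes open in all 7 equal-size lists, with limma and Benjamini-Hochberg adjustment. With limma, 0 genes higher and 0 lower in treated libraries had an adjusted p under 0.05, and at an unadjusted p under 0.05 there were 360 higher, 3.88%, and 403 lower, 4.34%. Of the 23 members compared, 2 were higher and 2 lower at the unadjusted level, and their values are given here after having been seen. The members' median percentile was 55.6, beside 48.3 over all genes, and their median treated minus vehicle difference was −1.36 points, beside 0.110 points over all genes. 10 members were higher and 13 lower in treated libraries. The members' counts in each direction were thus near even, as they were among all genes, with 4706 higher and 4577 lower.

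ALDOC stood at percentiles 51.0, 47.0, 38.7 and 23.3 in treated and 15.2, 10.9 and 29.9 in vehicle libraries. Treated 9 lay within the vehicle range and the other treated libraries above it. The difference was 21.3 points, with a limma standard error of 8.02, an unadjusted p of 0.0301 and an adjusted p of 0.567. GAPDH stood at 67.2, 70.1, 45.4 and 75.7 in treated and 27.1, 54.2 and 46.9 in vehicle libraries, with treated 8 among the vehicle values. Its difference was 21.9 points, with a limma standard error of 9.24 and an adjusted p of 0.598, and it was 13.2 points without vehicle 6. The GAPDH summit lay 1801 to 1843 bp from the gene's end in treated 6 and 7 and vehicle 7 and 8. In treated 8, treated 9 and vehicle 6 it lay 263 to 534 bp away, so the percentiles mix different summits. With the summit required inside the window, an alternative added later, GAPDH was not among the genes compared. For ALDOC a window of 2500 bp instead of 1000 bp turned the difference to −20.8 points, with a limma adjusted p of 0.565. The cause of that turn was not tested. At annotated starts alone, an alternative chosen after seeing the data, the differences were 17.0 points for ALDOC and 27.0 points for GAPDH.

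PDK3 stood at percentiles 52.2, 55.4, 57.0 and 41.2 in treated and 70.8, 93.6 and 60.9 in vehicle libraries, so that every treated library was below every vehicle library. Among all genes 4.66% had this order and 3.99% the opposite one. The PDK3 difference was −23.6 points, with a limma standard error of 8.33, an unadjusted p of 0.0231 and an adjusted p of 0.533, and it was −13.7 points without vehicle 7. PFKFB1 had the same order, with percentiles of 65.5, 70.1, 62.0 and 45.3 in treated and 73.4, 83.6 and 76.5 in vehicle libraries. Its difference was −17.1 points, with a limma adjusted p of 0.580, and it concerns the region beside the start of APEX2. No member had every treated library above every vehicle library.

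**Figure D3:**
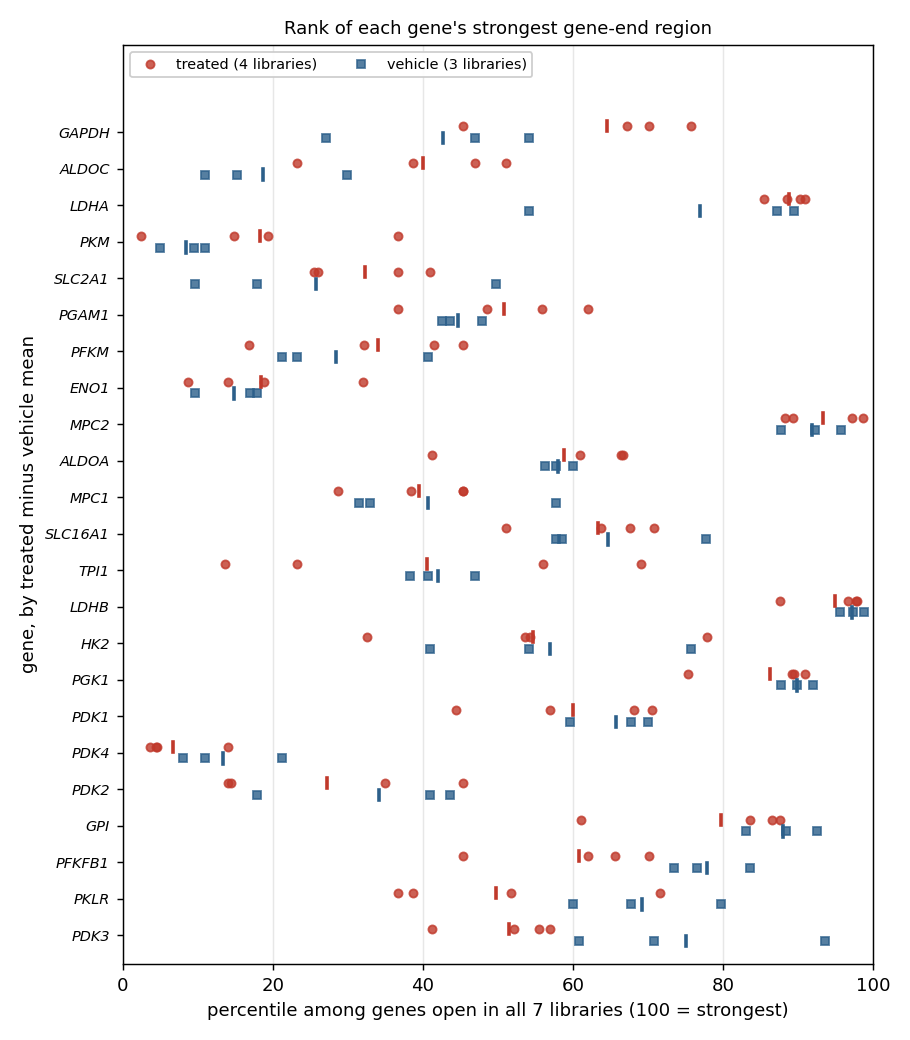
Percentile of the strongest gene-end region of the 23 genes open in all 7 equal-size lists, among the 9283 genes open in all 7 (x axis, 100 strongest), for treated libraries (red circles, 4) and vehicle libraries (blue squares, 3). Vertical ticks are group means and genes are ordered by treated minus vehicle mean. GAPDH and ALDOC head the plot at 21.9 and 21.3 points, PDK3 and PFKFB1 show no overlap with treated lower, and LDHB and MPC2 lie between percentiles 87.6 and 98.8 in every library.

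Within each enzyme the order of isoforms was compared inside each library. The part of depth in whether a weak isoform has a region at all was not tested. PFKP and PFKL, for example, both had none at a gene end in vehicle 6 and 7. Of 25 isoform pairs, 24 had the same isoform stronger in at least 5 of 7 libraries and 14 in all 7. In 8 of these 14 an isoform had no region in at least 1 library, and 6 of the 10 pairs with regions throughout kept 1 order in all 7. The same count for pairs of unrelated genes was not made. LDHB was stronger than LDHA in 6 of 7 libraries, with treated 8 the exception. ALDOA was stronger than ALDOC, PFKM than PFKL and PFKP, SLC16A1 than SLC16A3, and MPC2 than MPC1 in all 7. PDK3 and PDK1 were each stronger than PDK2 and PDK4 in all 7, while between them PDK3 was stronger in 4 libraries and PDK1 in 2, with 1 tie. Folds of different genes are not levels of RNA or protein, and the isoforms' regions differ in width and in neighbouring genes.

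The starts changed the order in 2 of the 20 pairs with annotated starts on both sides, and 16 kept it. PKLR was stronger than PKM at the gene ends in 6 of 7 libraries with 1 tie, and PKM was stronger at annotated starts in 7 of 7, since PKLR had no region within 1000 bp of its starts. ENO2 was stronger than ENO1 in 5 of 7 libraries at the gene ends. In treated 6, 8 and 9 and in vehicle 8 the ENO2 region lay near ATN1, 9891 to 9965 bp from the ENO2 start. In treated 7 and vehicle 6 it lay 6 and 215 bp from that start, near LRRC23. ENO1 was stronger at annotated starts in 5 of 7. HK2 was stronger than HK1 in 7 of 7 libraries at the ends and in 6 of 7 at starts, with median folds of 16.1 for HK2 and 10.1 for HK1 at starts.

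**Figure D4:**
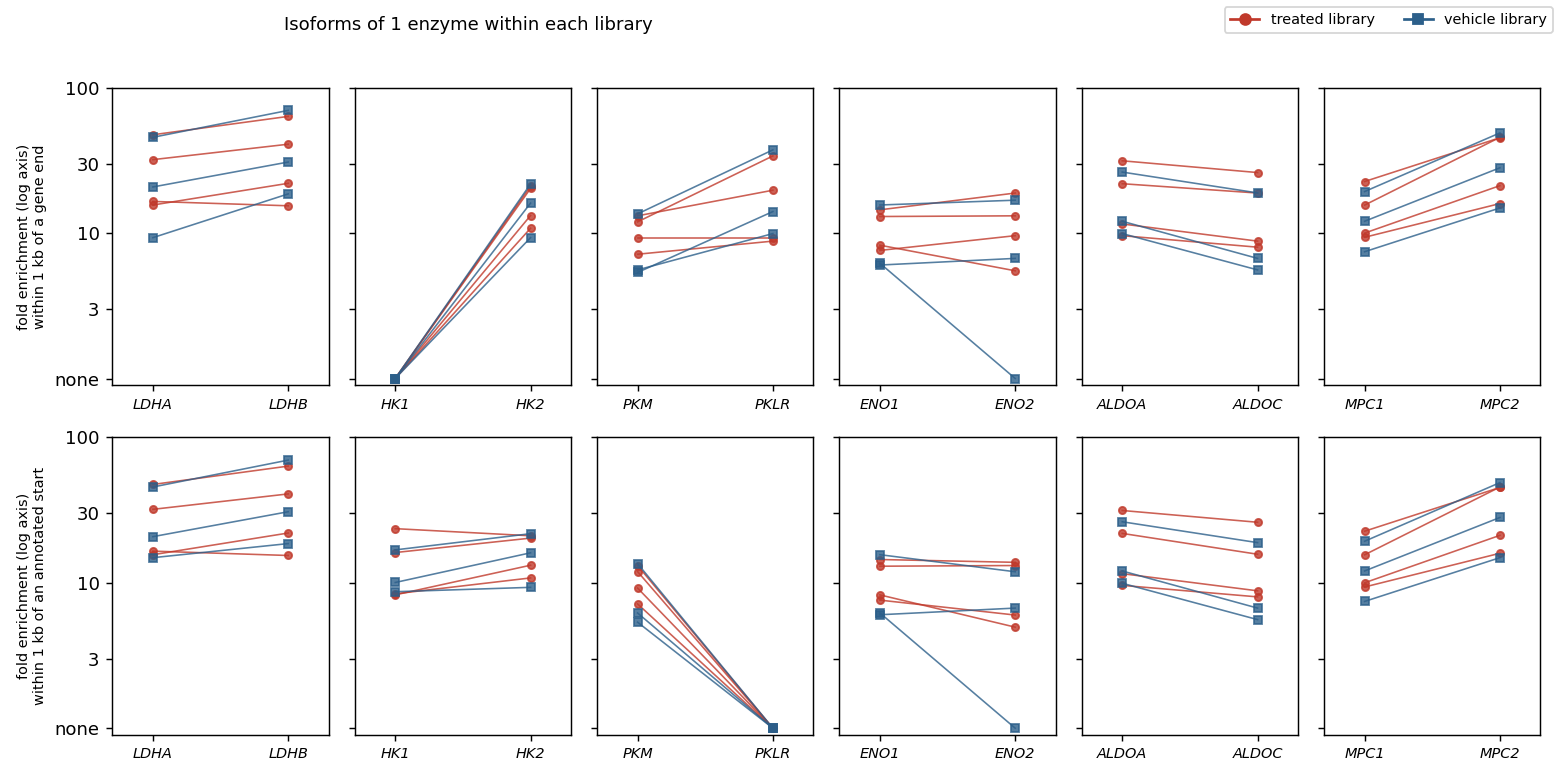
Fold enrichment (log axis) of paired isoforms within each library, treated as red circles and vehicle as blue squares, joined by a line per library. The upper row uses regions within 1000 bp of either gene end and the lower row regions within 1000 bp of an annotated start, and "none" marks the absence of a region. The lines of PKM and PKLR turn over between the rows, HK1 has no region above and folds of 8.26 to 23.6 below, and LDHB lies above LDHA in 6 of 7 libraries in both rows.

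Taking starts in place of gene ends, 27.0 ± 1.63 of 31 members were open in treated and 26.3 ± 1.53 in vehicle libraries (SD, n = 4 and 3), a difference of 0.667 genes or 2.15 points. Over all genes the difference at starts was 5.91 points, so the members' gain there was smaller than that of all genes. 4 members, GPI, PFKL, ENO2 and ENO3, were open there in a larger share of treated libraries, beside 24.6% of all genes. Another 4, PFKP, PGAM1, SLC16A3 and PDHA1, were open in a larger share of vehicle libraries, beside 5.53% of all genes. SLC16A3 was open in 1 of 4 treated and 1 of 3 vehicle libraries, and PFKP in vehicle 7 alone, at that list's lowest fold of 3.72. In the deposited lists both were open in a larger share of treated libraries. There 5 members had a larger treated share, beside 4149 of 13312 genes open anywhere, and 1 a larger vehicle share, beside 618. Of the 64 starts, 20 were covered in all 7 equal-size lists and 20 in none, beside 35.3% and 34.7% of all starts. The 20 covered in all had a median GC content of 70.8% and the motif GGGCGG, read on both strands, at 19 of them. The 20 covered in none had a median GC content of 52.8% and GGGCGG at 6. Over all genes GGGCGG stood at 75.7% of starts covered in all 7 and at 27.8% of those covered in none. ACGTG stood at 45.0% of the members' starts covered in all 7 and at 20.0% of those covered in none, beside 28.3% and 17.3% over all genes.

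Away from ends and starts, 36 regions inside the bodies of 17 members were found among 62514 regions merged over the equal-size lists. 6 of them were in all 7 libraries. The one in HK1, chr10:69362408-69363457, had folds of 28.6, 19.7, 8.26 and 8.40 in treated and 9.38, 8.69 and 25.5 in vehicle libraries. The others were 1 in PFKM, 1 in PFKP, 2 in PFKFB2 and 1 in PFKFB3, so that 3 of the 4 genes closed at their ends held a region in every library inside the gene. None of the 36 was in all treated and no vehicle library, beside 0.781% of all merged regions, or in all vehicle and no treated library, beside 0.370%. 11 were in a larger share of treated libraries, beside 39.6% of all merged regions, and 19 in a larger share of vehicle libraries, beside 37.4%. Most of the 19 were in 1 vehicle and no treated equal-size list. Those in PFKP, PFKFB1 and PGK1 were in vehicle 7 alone, at folds of 3.72 to 4.34, where that list's lowest was 3.72. With groups of 4 and 3, a region in 2 of each, as in SLC2A1, also counts toward vehicle. The region inside LDHB, chr12:21650702-21651663, was in 4 of 4 treated and 2 of 3 vehicle equal-size lists, with folds of 17.0, 8.72, 7.71 and 8.81 in treated libraries and 7.37, none and 19.3 in vehicle libraries.

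Genes that feed or leave the same pathway were read from further lists. All 10 genes of the NADH shuttles, which carry cytosolic reducing power to mitochondria, were open in all 7 equal-size lists, as were 6 of 8 genes of the pentose phosphate pathway, 5 of 8 further genes of pyruvate dehydrogenase and its regulation, and 4 of 8 of gluconeogenesis, beside 46.5% of all genes. Of 11 regulators of glycolytic genes 7 were open in all 7, including HIF1A, EPAS1 and ARNT, the subunits of hypoxia-inducible factor. Of 21 other glycolytic isoforms, 6 were open in all 7 and 10 in none, beside 29.6% of all genes open in none, among them PGK2 and LDHC, the forms of testis. SLC2A4, the insulin-regulated glucose transporter GLUT4, and ADPGK, an ADP-dependent glucokinase, were each open in 4 of 4 treated and 0 of 3 vehicle equal-size lists, the pattern of 0.818% of all genes. They were the 2 of 66 genes on these lists whose shares differed by 0.75 or more. SLC2A4 had folds of 11.3, 7.15, 5.51 and 6.80 in treated libraries and none, none and 8.63 in the deposited vehicle lists. ADPGK had folds of 10.4, 11.6, 4.96 and 4.40 in treated libraries and none, none and 8.22 in the deposited vehicle lists. For both, the region of vehicle 8 was outside its equal-size list although its fold was above that of 3 treated libraries for SLC2A4 and 2 for ADPGK.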

How the data were processed

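ATAC-seq peaks of 4 treated and 3 vehicle libraries were used as deposited. Per the submitters' processing notes, FastQC, Bowtie2 and Picard were used with the build hg38, without versions. Peaks were called with MACS2 in each library separately and not on pooled reads, per the file headers. The caller's settings, its treatment of the transposase offset and the number of reads per library were not given in the sources used here. Each deposited peak carries a score, a fold enrichment (a ratio over background), a −log10 p-value, a −log10 q-value and a summit, all computed by the authors' peak caller. The score was not used, and the −log10 values served to order ties and in alternatives.

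Autosomes and chromosome X were used, and 29 to 54 peaks per library lay elsewhere. Gene ends came from RefSeq genes on GRCh38.p14, and all 34 members matched by symbol. Annotated starts and strands came from the RefSeq promoter table, with 31 members, while SLC2A3, PFKFB2 and SLC16A1 were read at gene ends alone. Ties at the limit of an equal-size list were ordered by −log10 p, width and position. Summit pileups and backgrounds were recovered from the steps of the fold, on which 100.0% of folds lay within a tolerance of 0.02. Fisher's exact test was run per gene, and limma on percentiles, both with Benjamini-Hochberg adjustment over all genes tested. The tests were tried on simulated data, and overlaps were checked against bedtools 2.31.1.

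Values per library are given for members whose share of open libraries differed by 0.5 or more, for the strongest member of each isoform family, and for genes of the other lists that differed by 0.75 or more. Further members were described after their values were seen. The members and lists were chosen with earlier results of these data known. Nothing says whether libraries of 1 treatment are more than separate differentiations of 1 line, and p-values measure the spread between them. Poisson intervals cover counting error only. Alternatives were shorter lists, other rankings, windows and limits, starts alone, each library left out, and differentiation as a block. Python 3.11.15, pandas 2.3.3, scipy 1.17.1, R 4.3.3 and limma 3.58.1 were used.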

Additional observations from a re-analysis of the deposited data

Results flagged for a closer look

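In 5 of 24 values examined over the 4 treated libraries, 1 library stood apart from the other 3 by a gap that took most of the group's range, past Dixon's critical value for 4 samples. Chance alone gives such a gap in about 1 in 20 groups, and the values of 1 library are not independent of each other. No cause was tested. GPI stood at percentile 61.1 in treated 9, against 83.6 to 87.6 in the other treated libraries. PGK1 stood at 75.3 in treated 7, against 89.1 to 90.9. LDHB stood at 87.6 in treated 8, against 96.6 to 97.8. PDK4 stood at 14.1 in treated 7, against 3.65 to 4.64. In treated 8, 27 members were open, against 29 in each of the other treated libraries. With the other 3 counts equal, any different count would have passed the critical value, so the 1 in 20 rate does not apply to it.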

How the results depend on the processing

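The number of members open, 2.17 more in treated than in vehicle libraries, was 2.00 to 2.67 more with any 1 library left out and 0.667 more at annotated starts alone. Genes open in all treated and no vehicle library numbered 115, and 128 to 385 with 1 library left out (385 without vehicle 8), 22 in the deposited lists and 1 among peaks with a −log10 q of at least 5. The opposite pattern had 3 genes, and 4 to 18 with 1 library left out (18 without vehicle 7), 0 in the deposited lists, 0 at a −log10 q of at least 5, 6 with the summit in the window and 5 at annotated starts. Leaving out a library lowers the number of libraries a gene must satisfy. For the other shifts the cause was not tested. With limma's trended, robust variance 1 gene was higher and 2 lower, with a smallest adjusted p of 0.0304, and with any 1 library left out limma called 0 in each direction. ALDOC turned to −20.8 points in the 2500 bp window. Without 1 library its difference was 17.4 to 26.9 points, that of GAPDH 13.2 to 28.0, that of PDK3 −30.5 to −13.7 and that of PFKFB1 −20.2 to −11.9. Members open in a larger share of treated libraries were 4 to 10 over all alternatives. Of 109 alternative values of single named genes, 1 changed sign and 5, of PFKFB4 and PFKL, came to a difference of 0. As to pairing, deviations from the group means correlated at −0.107, 0.0205 and −0.0242 between libraries of differentiations 6, 7 and 8. The treated and vehicle lists held 188516 and 53398 regions for differentiation 6. They held 248900 and 32828 for 7, and 55533 and 159902 for 8. With lists so unlike in length, these correlations cannot tell whether a shared number marks shared cells. The main comparison left the libraries unpaired. With the replicate block limma called 0 genes and the smallest adjusted p was 0.701, and over differentiations 6 to 8 the members' difference was 2.00, with 159 genes open in the treated libraries only and 4 in the vehicle libraries only. Summit pileups, with medians over the members of 16.0 to 133.0 in treated and 13.5 to 56.0 in vehicle libraries, limit what could be seen of weak regions.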
